A study of Mus musculus with 10 samples.

Results

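The 5 cell lines labelled KPC (A1081, A1620, A1625, A2031 and A2032) are described here on their own, as 5 of the 10 libraries of a series on mouse pancreatic cancer lines. They were taken by their genotype label, and no expression value entered the choice. Messenger RNA of each line was sequenced once, so that n = 5 lines and each line is 1 library. By convention, KPC stands for mice that develop pancreatic tumours after Cre recombinase, expressed in the pancreas, acts on engineered alleles of cancer genes, Trp53 among them. The labels do not spell out these alleles, the Cre driver, the animals' age or sex, or whether each line is a clone, and all 5 lines share the genotype label, the tissue label pancreas, the culture medium (DMEM with fetal bovine serum) and the absence of any named treatment. The other 5 lines, labelled KPCAf/f, are not used here. The question is how alike lines of 1 genotype label are and where they part, and since no groups are compared, no test of a difference was run and all values are descriptions of these libraries.

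Pancreatic ductal adenocarcinoma cells keep much of the programme of the duct epithelium, with simple keratins, mucins and the transcription factors of the foregut endoderm, and they often take on genes of the stomach lining. A classical state, marked by endodermal factors and gastric genes, is set apart from a basal state, marked by squamous keratins and laminins. Cells in culture also vary along the axis from epithelial (cadherin-based junctions) to mesenchymal (vimentin, matrix genes), and lines from separate tumours differ in chromosome content.

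The libraries held 16342887 to 19217899 reads assigned to genes, and 18706 to 19927 genes had at least 1 read. Values are the deposited normalized counts, in which the reads of a library are divided by that library's size factor. Within these libraries 1 read was worth about 1 normalized count. Spread is given as the SD of log2(normalized count + 1) over the 5 lines, with the SD over the 4 lines without A1620 beside it. Unless a line is named, values follow the order A1081, A1620, A1625, A2031 and A2032. No pair of libraries agreed within sampling noise, the lowest chi-square per degree of freedom over genes being 55.6, for A1625 and A2031. Because each line was sequenced once, differences between lines, cultures and libraries cannot be told apart.

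The library of A1620 stood apart from the other 4. Its level relative to the mean of the 5 lines fell by 0.67 on the log2 scale with each doubling of transcript length, whereas the slopes of A1081, A1625, A2031 and A2032 were 0.18, 0.18, 0.18 and 0.13. That mean includes A1620, and against the mean of the other 4 lines alone the slopes of A1081, A1625, A2031 and A2032 were 0.016, 0.013, 0.011 and -0.040. Relative to the mean of the 5 lines, genes whose longest transcript is under 1 kb had a median of 1.32 in A1620. Genes of 8 kb and over had a median of -1.09. Ribosomal protein genes, which are short, took 11.6% of its reads, against 3.82% to 4.32% in the other 4 lines. Mitochondrially encoded genes took 0.505%, against 1.31% to 1.78%. Of the 77 ribosomal protein genes with a mean of at least 100 normalized counts, A1620 was the highest line for 75, against 35.5% of all 10217 such genes. What set this library apart was not tested, and the spreads below are therefore also described without it.

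**Figure D1:**
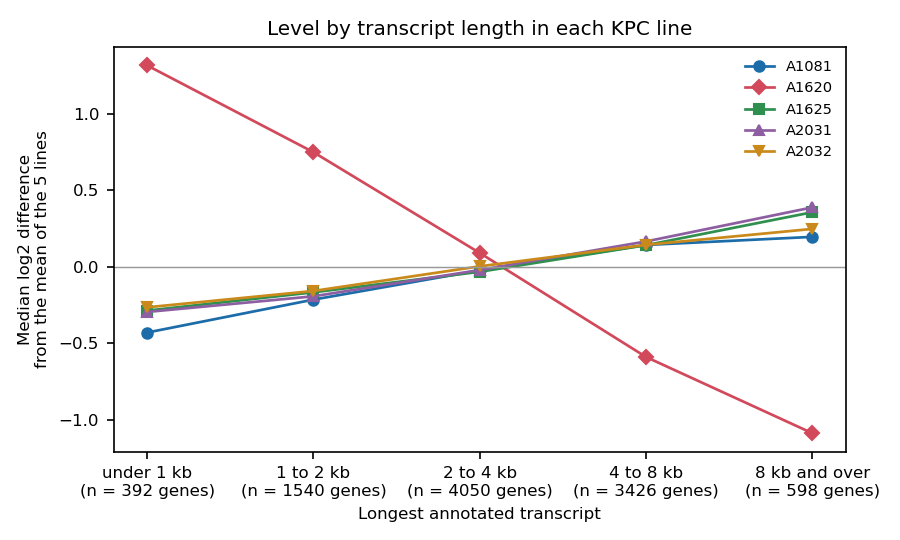
Median log2 difference of each KPC line from the mean of the 5 lines (vertical axis) for genes in 5 bins of longest annotated transcript (horizontal axis, with the number of genes in each bin). Each line of the plot is 1 cell line; A1620 runs from 1.32 in the shortest bin to -1.09 in the longest; since the mean includes A1620, the other 4 lines run the other way by construction.

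S100a6 and Eef1a1 had the most abundant messages once ribosomal protein and mitochondrially encoded genes were set aside. Levels of different genes are compared per kb of the longest annotated transcript. S100a6, a small calcium-binding protein, had the highest mean of the genes so ranked, 161078 normalized counts per kb, with 66348, 394737, 126984, 107414 and 109906 in the 5 lines. A1620 was the highest for this gene and A1081 the lowest, and the SD of 0.95 narrowed to 0.41 without A1620. Eef1a1, the factor that carries amino-acyl tRNA to the ribosome, followed at 72140.2 per kb (62293 to 86577). It kept nearly one level in all lines, with an SD of 0.19 (0.21 without A1620).

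Clusterin (Clu), a secreted chaperone, stood at 48756 normalized counts per kb and was highest in A2031. The lectin Lgals1 stood at 43985 and the cornified-envelope protein Sprr1a at 33092 per kb. Osteopontin (Spp1), a secreted phosphoprotein of duct cells, averaged 28262 per kb. Its normalized counts were 25007, 9972, 30411, 48397 and 99168. A2032 had the most osteopontin and A1620 the least, and the SD was 1.22 (0.88 without A1620), the widest among the 20 genes with the highest mean count. Hsp90ab1, a cytosolic chaperone, was the narrowest of those 20, with 85445, 96912, 76753, 78985 and 73480.4 normalized counts and an SD of 0.16 (0.09 without A1620). The chaperone, translation, actin and ribosomal genes at the top have many near-identical processed copies in the genome, and the share of their reads counted elsewhere is uncertain. Mir6236, a 123-base entry at 60693 per kb, is listed among the 20 highest per kb but its reads may belong to other RNA.

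Most duct markers were well expressed on average. Of 26 duct markers, 23 had a mean of at least 100 normalized counts, and Onecut1 and Mmp7 were at 0 in every line. Keratin 18 (Krt18), a filament protein of simple epithelia, had 50829, 120699, 55136, 49327 and 41139.9 normalized counts, 44138 per kb on average. Keratin 19 (Krt19), the standard duct marker, had 36434, 69657, 45179, 21597 and 47304. Both keratins were highest in A1620 and, among the other 4 lines, Krt19 was lowest in A2031, with SDs of 0.60 (0.18 without A1620) for Krt18 and 0.62 (0.52 without A1620) for Krt19. The membrane mucin Muc1 had 11705, 5706, 10827, 11068 and 14178 normalized counts and was lowest in A1620, with an SD of 0.50 (0.18 without A1620).

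Other duct genes separated the lines. Sox9, a progenitor and duct factor, had 190.3, 96.7, 633, 816 and 217 normalized counts, with A1625 and A2031 above the other 3. Cftr, the chloride channel of duct cells, had 181, 82.1, 114, 86 and 2036, so that A2032 stood alone. The water channels had another order: Aqp1 had 6795, 617, 1198, 753 and 455, and was highest in A1081. Aqp5 had 8364, 11785, 5163, 3423 and 1278, with A2032 lowest. The stem cell antigen Prom1 ranged from 51.7 in A1620 and 60.3 in A2031 to 1740.0 in A1081, an SD of 2.32 (2.10 without A1620). The 23 duct genes had a median SD of 0.64 (0.40 without A1620), beside 0.51 and 0.31 for all genes with a mean of at least 100.

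Of 27 transcription factors of pancreas and foregut, 16 had a mean of at least 100 and 9 stayed at or under 10 normalized counts in every line. Pdx1, the homeobox factor of the early pancreas, had 594, 1615, 1051, 1254 and 1291 normalized counts. Hnf4a, a nuclear receptor of gut endoderm and liver, had 5099.6, 2921, 7794, 6895 and 6302. A1081 was lowest for Pdx1 and A1620 for Hnf4a, with SDs of 0.55 (0.52 without A1620) and 0.56 (0.26 without A1620). Gata6, a factor of the classical state, had 1119.9, 758, 1056, 944 and 963 and a narrower SD of 0.22 (0.12 without A1620). Foxa2, which opens chromatin in endoderm, had 1266, 1817, 1444, 1266 and 1048. The widest of the 27 was Sox17, an endoderm and biliary factor, which had 86.1, 2.65, 11.7, 1.12 and 535 normalized counts. A2032 held most of it and A1081 some, while A2031 and A1620 had 1 and 2 reads. Cdx2, the intestinal homeobox factor, had 1068, 564, 620.3, 217 and 989.7, with A2031 the lowest.

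**Figure D2:**
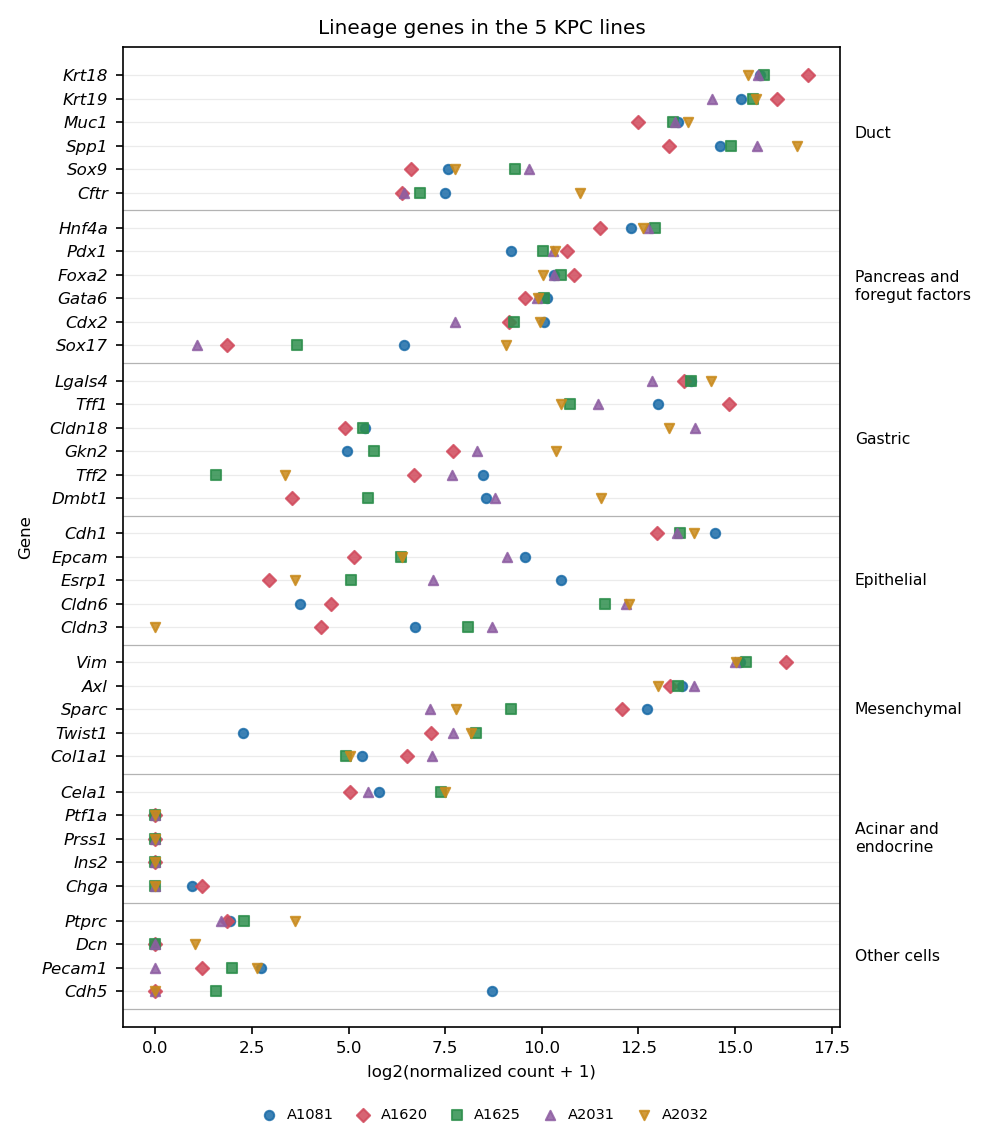
log2(normalized count + 1) of lineage genes (horizontal axis) in the 5 KPC lines; each symbol is 1 line, and symbols at 0 lie on top of each other. Most duct genes and foregut factors sit to the right in all lines. Ptf1a, Prss1, Ins2, Chga and Pecam1 stay at or under 10 normalized counts, whereas Cela1 and Col1a1 lie higher. Cdh5 is high in A1081 only. Cldn18, Dmbt1, Sox17, Esrp1 and Cldn6 are drawn out over many doublings.

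Acinar and endocrine genes were all but absent. Of 29 acinar genes, which encode digestive enzymes and their regulators, 26 stayed at or under 10 normalized counts in every line and 14 were at 0 throughout, among them Ptf1a and Prss1. The summed count of all 29 was 62.6 to 217.5 per line. The elastase gene Cela1 was the highest, with 54, 31.8, 166, 44.7 and 180.4. Of 26 endocrine genes 24 stayed at or under 10 in every line, and their sum was 11.4 to 123.7. The exceptions were Slc2a2, a glucose transporter that liver also uses, with 4.73, 21.2, 50.9, 69.3 and 44.3, and Abcc8, the sulfonylurea receptor, with 0, 2.65, 10.8, 19 and 72.2.

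Genes of the stomach lining were expressed in every line, and which ones were high differed between lines. Of 30 gastric and classical genes, 17 had a mean of at least 100, and their median SD of 1.35 (1.06 without A1620) was the widest of the 18 lists with at least 5 such genes, beside 0.51 and 0.31 for all genes. The intestinal and gastric lectin Lgals4 had 14981, 13048, 14989.8, 7385 and 21367 normalized counts. Plac8, a small cysteine-rich protein, had 14606, 41249, 17902, 19105 and 22648. These abundant members were high in all lines, with SDs of 0.56 (0.64 without A1620) and 0.57 (0.26 without A1620). The aspartic protease cathepsin E (Ctse) had 10546, 3696, 2412, 6638 and 3719, and the trefoil peptide Tff1, a secreted protector of mucosa, had 8253, 29159, 1702, 2786 and 1444. A1620 and A1081 had most Tff1, and A1625 and A2032 least.

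Claudin 18 (Cldn18), a tight junction protein of stomach and lung epithelium, divided the lines sharply. It had 41.7, 29.1, 40.1, 15860.0 and 9945 normalized counts, high in A2031 and A2032 and low in the other 3. Gastrokine 2 (Gkn2), a peptide secreted by surface mucous cells, had 30.3, 207, 49.9, 319.6 and 1331, and Gkn1 had 24.6, 131, 25.4, 368 and 914. Both gastrokines were highest in A2032 and then A2031, the lines with Cldn18. Dmbt1, a scavenger receptor of mucosal surfaces, had 372, 10.6, 44, 444 and 2938, and was highest in A2032 as well. The trefoil peptide Tff2 did not follow this order, with 357, 102, 1.96, 205 and 9.28, and was highest in A1081. Tff3 had 21.8, 53, 0.978, 420.2 and 83.5, and was highest in A2031 and then A2032. A1625 held 1 to 2 reads of each of these trefoil peptides. The mucin Muc5ac had 211, 111, 66.5, 319.6 and 319.6, and Vil1, a microvillus protein, had 124, 767, 2851, 1523 and 791, with A1625 highest.

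Of the basal and squamous genes, 13 of 29 had a mean of at least 100, and 11 stayed at or under 10 in every line, Trp63 and Krt5 among them. The 13 members were mostly laminins, integrins and growth factors that epithelial cells share. They also include the cornified-envelope protein Sprr1a, described above among the most abundant messages. Lamb3, a chain of the laminin under epithelia, had 6966, 3126, 931, 3259 and 339 normalized counts and its partner Lama3 had 353, 37.1, 21.5, 446 and 10.3. A2032 was lowest for both. It was the lowest line for 7 of the 13 genes, against 16.6% of all genes. Keratin 14 (Krt14), a basal keratin, had 53, 1706, 19.6, 7.82 and 2.06, so that its SD of 3.49 became 1.76 without A1620.

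Most epithelial junction genes were expressed, and several of them were low in 1 or more lines. Of 45 such genes, 36 had a mean of at least 100. E-cadherin (Cdh1), the adhesion molecule of epithelia, had 22853, 8010.0, 12193, 11531 and 15753 normalized counts and an SD of 0.56 (0.45 without A1620). A1081 had the most Cdh1, and was the highest line for 16 of the 36 genes, against 17.8% of all genes. Epcam, another epithelial adhesion molecule, had 754, 34.4, 81.2, 546 and 82.5, with A1081 and A2031 above the other 3. Esrp1, which splices epithelial isoforms, had 1431, 6.62, 32.3, 144 and 11.3. Its relative Esrp2 had 1178 to 1645 over the lines. The paralogs thus spread very differently, with SDs of 3.06 (2.98 without A1620) for Esrp1 and 0.21 (0.24 without A1620) for Esrp2. The desmosomal cadherin Dsc2 had 1805, 17.2, 58.7, 179.9 and 721, again highest in A1081 and lowest in A1620.

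Claudins, the strand proteins of tight junctions, included the widest gene of this list. Claudin 6 (Cldn6), which is best known from embryonic epithelia, had 12.3, 22.5, 3175, 4598 and 4909 normalized counts, high in A1625, A2031 and A2032 and low in A1081 and A1620. Its SD was 4.33 (4.15 without A1620). Claudin 3 (Cldn3) had 105, 18.5, 272, 415 and 0 and its neighbour claudin 4 (Cldn4) had 106, 7.95, 63.6, 122 and 2.06. A2032 held 0 and 2 reads of them, while A1625 and A2031 held the most Cldn3. Cldn7 had 304, 49, 251, 241 and 12.4, and was lowest in A2032 as well.

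The lines were not purely epithelial. Of 35 mesenchymal genes, 13 had a mean of at least 100 and 9 stayed at or under 10 in every line. Vimentin (Vim), the filament protein of mesenchymal and of many cultured cells, had 35970.0, 81287, 39855, 32744 and 33596 normalized counts, and the 4 lines other than A1620 lay close together (SD 0.13). The receptor kinase Axl had 12744, 10205, 11873, 15643 and 8181, and the transcription factor Zeb1 had 674, 321, 1017, 983 and 862, with SDs of 0.35 (0.39 without A1620) and 0.69 (0.27 without A1620). Fibronectin (Fn1) had 6377, 2054, 5832, 4662 and 2771. These genes were thus shared by all lines. Sparc, a matrix glycoprotein, had 6779.9, 4316, 589, 136 and 219, high in A1081 and A1620. Twist1, a transcription factor of mesoderm, had 3.79, 139, 314, 206 and 285, and was lowest in A1081.

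The main collagens of stromal fibroblasts were nearly missing. Col1a1 had 39.8, 90.1, 29.4, 141 and 32 normalized counts, whereas Col1a2 (1.03 to 5.59), Col3a1 (0 to 4.47) and Pdgfrb (0 to 1.32) stayed at or under 10 in every line. Col5a1, a minor fibrillar collagen, was present in all lines (562 to 2081). Of 23 fibroblast, stellate and pericyte markers, 18 were at or under 10 in every line, Lum and Fap at 0, and 7 in all at 0 throughout. Their sum was 51.4 to 1078, the highest in A1620, where podoplanin (Pdpn) alone gave 877. Of 25 immune markers, 20 were at or under 10 in every line. The pan-leukocyte gene Ptprc had 2.84, 2.65, 3.91, 2.24 and 11.3, and the monocyte co-receptor Cd14, which epithelial cells also express, had 1555, 1259.7, 750.4, 1301 and 1371. Of 15 endothelial markers, 9 were at or under 10 in every line, including Pecam1 (0 to 5.68). In bulk libraries, fewer cells of a type and less RNA per cell cannot be told apart.

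Some genes of other lineages appeared in a few lines. Of 12 neural and Schwann cell markers, 3 had a mean of at least 100 and 5 stayed at or under 10 in every line, and of 12 hepatocyte markers these numbers were 2 and 6. VE-cadherin (Cdh5), the adhesion molecule of endothelium, had 415, 0, 1.96, 0 and 0 normalized counts. It was almost all in A1081, where Pecam1 had 5.68 and Tek 0. The VEGF receptor Flt1 had 55.9, 49, 676, 916 and 335, in A1625, A2031 and A2032 above the other lines. Alpha-fetoprotein (Afp), a fetal liver protein, had 1.89, 319, 155, 487 and 11.3, while apolipoprotein B (Apob), which intestine also makes, had 19689, 6179, 7253, 12939.9 and 25423. Csf1r, the macrophage growth factor receptor, had 59.6, 54.3, 26.4, 11.2 and 0, and other macrophage genes (Adgre1, C1qa, Lyz2) were at 0 in all lines.

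Cancer driver genes and their neighbours had somewhat less spread than genes in general. Of 22 such genes, 21 had a mean of at least 100. Their median SD was 0.39 (0.26 without A1620), beside 0.51 and 0.31 for all genes with such a mean. A1620 was the lowest line for 14 of the 21, against 38.5% of all genes. Trp53, the tumour suppressor, had 109.8, 174, 157, 118 and 97.9 normalized counts, 40.1 per kb on average. Gene-level counts do not tell mutant from normal alleles or recombined from intact ones. Cdkn2a, the INK4A and ARF locus, had 3973, 9496, 2516, 3221 and 3444, its neighbour Cdkn2b had 893, 1510.1, 1132, 1033 and 1470.2, and Mtap, a gene beside them on chromosome 4, had 6129.6, 3888, 4036, 5201 and 5467. All were thus present in every line. Smad4, the co-factor of TGF-beta signalling, had 2800.2, 1356, 2113, 1975 and 2399, and Myc had 4391, 5102, 3892, 5972 and 5665. Arid1a, the SWI/SNF subunit in the series title, had 2267, 819.9, 3109, 2459.7 and 1915. It is a long transcript and A1620 was its lowest line, with an SD of 0.74 (0.29 without A1620). Rnf43, a brake on Wnt receptors, was the member with the widest SD without A1620, at 873, 244, 152, 408 and 143 and 1.08 (1.24 without A1620).

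Targets of p53 leaned towards A2032. Of 19 targets with a mean of at least 100, A2032 was the highest line for 11 (57.9%), and for 12 (63.2%) when A1620 was left out, against 20.6% and 29.7% of all genes. Cdkn1a, a brake on the cell cycle, had 280.2, 201, 119, 131 and 401 normalized counts. Trp53inp1 had 244, 27.8, 118, 103 and 743, and Btg2, an antiproliferative gene, had 254, 106, 304, 225 and 714. Not all targets shared this order: Bax, a cell death gene, had 1067, 3759, 1110.5, 1168 and 1075, and differed little apart from A1620, with an SD of 0.79 (0.06 without A1620). The stress cytokine Gdf15 had 79.5, 74.2, 58.7, 4.47 and 206, lowest in A2031.

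Proliferation genes were mostly lowest in A2032. Of 25 such genes, all with a mean of at least 100, A2032 was the lowest line for 17 (68.0%), and for 20 (80.0%) when A1620 was left out, against 16.6% and 25.9% of all genes. Mki67, a marker of cycling cells, had 7707, 5142, 9673, 9571 and 4772 normalized counts. Mcm5, a helicase subunit at replication origins, had 4193, 5479, 4218, 3098 and 1944. Top2a, which untangles replicated DNA, had 12567, 9159.8, 17737, 20209 and 8785. A2032 was the lowest line for all 3 of these genes. Cyclin D2 (Ccnd2) stood apart, with 7304, 3921, 6269, 2574 and 11591, for which A2032 was highest. The other D-type cyclin of the list, Ccnd1, had 29541, 25418, 17169, 27470.1 and 14680.0 and was lowest in A2032.

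Glycolysis and hypoxia genes were mostly highest in A2032 and lowest in A2031. Of 22 such genes with a mean of at least 100, A2032 was highest for 12 (54.5%) and A2031 lowest for 13 (59.1%), against 20.6% and 13.7% of all genes. Without A1620 these counts were 14 and 16. Ndrg1, a gene induced by low oxygen, had 2251, 2859.9, 2256, 663 and 7026 normalized counts. Bnip3, which marks mitochondria for removal, had 293, 188, 284, 83.8 and 1034. The lactate exporter Slc16a3 had 1490.0, 301, 725, 117 and 2144. All 3 were highest in A2032 and lowest in A2031. Car9, a carbonic anhydrase used as a hypoxia marker, had 1017, 29.1, 15.7, 39.1 and 342, so that here A1081 was highest. Vegfa, the vascular growth factor, was also highest in A1081, with 5905, 1650.5, 1564, 1590.2 and 2405. The glycolytic enzymes named here differed less: Pgk1 had 7498, 7700.0, 6150.1, 5817 and 14339.8 and Ldha had 33957, 42245, 29068, 24437 and 41613.

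Of 20 response genes of the MAPK pathway, 19 had a mean of at least 100. The phosphatase Dusp6, a feedback inhibitor of ERK, had 6058, 2228, 4065, 4554 and 2884 normalized counts. Egr1, an immediate early gene, had 1825, 95.4, 144, 137 and 231, with A1081 far above the others. The growth factor amphiregulin (Areg) had 1006, 1172, 975, 1141 and 1657, with A2032 the highest.

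Expressed genes of MHC class I presentation had higher mean log2 counts than expressed interferon-stimulated genes. For members with a mean of at least 100, mean log2 levels per line were 10.5 to 11.1 and 7.57 to 8.31. Over all genes with such a mean they were 9.55 to 9.68. These means are of counts not divided by transcript length, and the MHC list includes the chaperones Calr and Canx. The part of length and of these members in the difference was not tested. Of 15 genes of MHC class I presentation, 9 had a mean of at least 100 and 3 (Psmb8, Psmb9 and Nlrc5) stayed at or under 10 in every line. The class I heavy chain H2-K1 had 3606, 3738, 1787, 1411 and 2476 normalized counts and beta-2 microglobulin (B2m) had 2714, 2731, 1666, 2093 and 2145. The H2 genes are near-identical copies, and the share of each is uncertain. Of 28 interferon-stimulated genes, 8 had a mean of at least 100. Oasl1, an antiviral gene, had 1014, 1366, 1379, 772 and 1779. Of 28 chemokines and cytokines, 10 had a mean of at least 100, and Il33, an alarmin, had 2098, 636, 3369, 1649 and 4277, with A2032 the highest. Cxcl1, a neutrophil chemokine, had 54.9, 50.3, 0.978, 126 and 0, with at most 1 read in A1625 and A2032.

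Spread over all genes depended strongly on A1620. Of the 10217 genes with a mean of at least 100 normalized counts, 1240 (12.1%) had an SD of at least 1, or 1 doubling, 200 (1.96%) an SD of at least 2 and 66 an SD of at least 3. Without A1620, 617 of 10168 genes (6.07%) had an SD of at least 1, 175 (1.72%) of at least 2 and 62 of at least 3. The median SD was 0.51, or 0.31 without A1620. After each line's dependence on transcript length was smoothed away, the counts were 859 (8.58%), 199 and 65 of 10006 genes and the median was 0.40. The spread expected from counting reads alone had a median of 0.055, far under these values. Leaving A1620 out thus removed more of the moderate spread than of the widest. Of the 200 genes, 147 kept an SD of at least 2, and 560 of the 1240 kept an SD of at least 1.

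**Figure D3:**
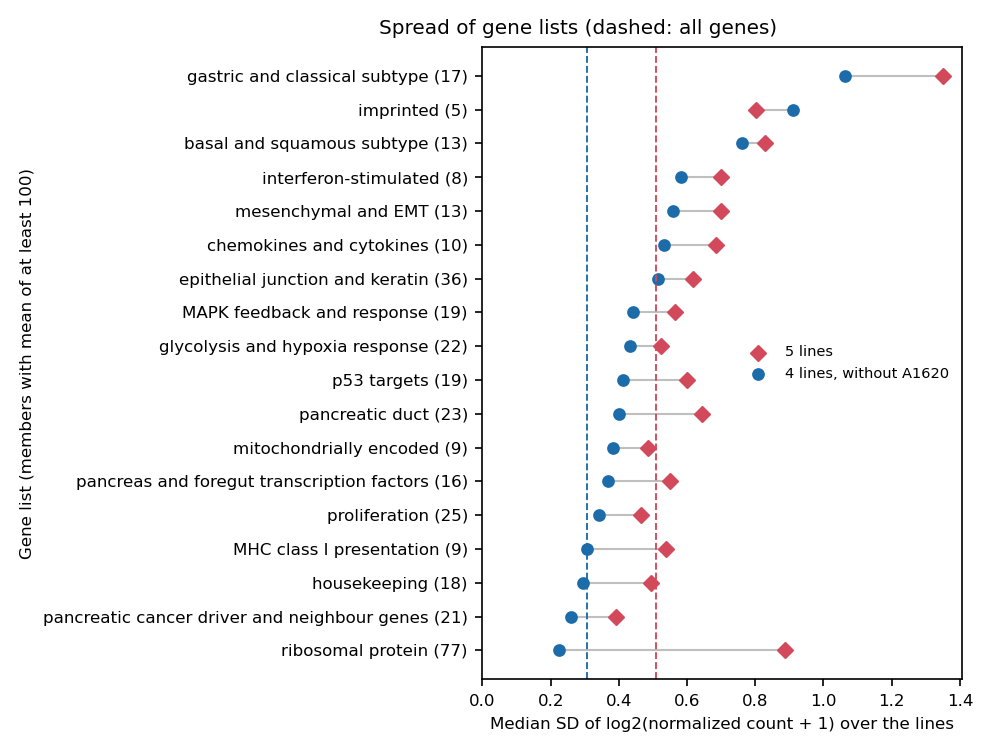
Median SD of log2(normalized count + 1) over the 5 lines (diamonds) and over the 4 lines without A1620 (circles) for each gene list with at least 5 members at a mean of at least 100, with the number of those members; dashed lines are the medians of all genes, 0.51 and 0.31. Among these lists, the gastric list lies farthest to the right with 5 lines and the ribosomal protein list moves most, from 0.89 to 0.22.

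Between lines, A1625 and A2031 were closest, with a median absolute log2 difference of 0.26 and 213 genes at least 4-fold apart. The other pairs without A1620 had medians of 0.34 to 0.38 and 282 to 369 such genes. Pairs with A1620 had 0.81 to 0.86 and 991 to 1255 genes, or 0.52 to 0.63 and 506 to 735 genes after the length correction. A1620 thus remained the most distant line with its length dependence removed. Genes at least 4-fold above the next line numbered 97 in A1620, 20 in A2032, 18 in A1081, 13 in A1625 and 2 in A2031, and genes at least 4-fold below the next line 297, 26, 35, 17 and 14.

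Of the 24 genes with the largest SD, 21 had at most 10 normalized counts in at least 1 line. Ranking by SD on the log2 scale favours genes near the floor in some line, so this count follows in part from the ranking. Slc38a1, a glutamine transporter at chr15:96571418-96642913 (GENCODE, GRCm38), led with 1744, 344, 1718, 3.35 and 1.03 normalized counts and an SD of 4.72 (5.32 without A1620). It was high in A1081 and A1625, lower in A1620 and near the floor in A2031 and A2032. Peg3, an imprinted zinc finger gene at chr7:6703892-6730431, had 226, 6.62, 2544, 0 and 2.06 and an SD of 4.70 (5.30 without A1620). Pcdh7, a protocadherin at chr5:57717967-58133230, had 1.89, 1.32, 704, 644 and 0, almost all in A1625 and A2031. Biglycan (Bgn), a small proteoglycan of matrix at chrX:73483602-73495933, had 8061, 3.97, 4.89, 16.8 and 5.15, nearly all in A1081.

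**Figure D4:**
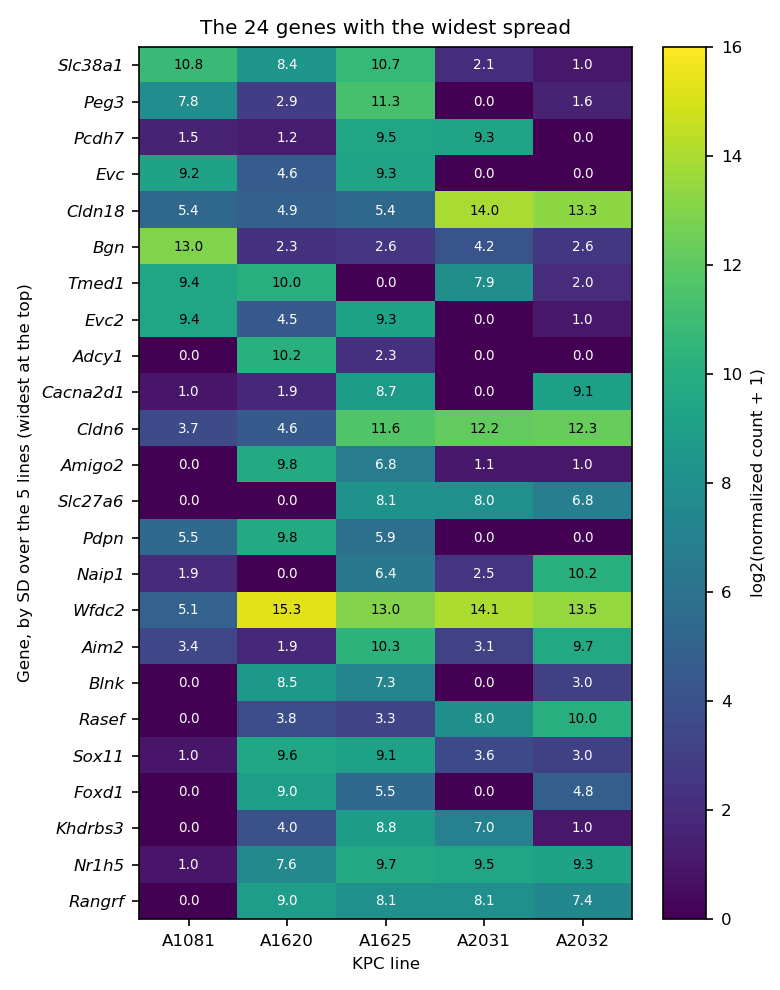
Heat map of log2(normalized count + 1) for the 24 genes with the largest SD (rows, widest at the top) in the 5 KPC lines (columns), with each value printed in its cell. Most rows hold both values near 0 and values above 8, and the lines that are high differ from row to row.

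Evc (chr5:37289098-37336894) and Evc2 (chr5:37338499-37425055), which encode partner proteins at the base of the primary cilium that relay Hedgehog signals, lie head to head and spread together. Evc had 591, 23.8, 639.9, 0 and 0 normalized counts and Evc2 had 691, 21.2, 620.3, 0 and 1.03. Both were high in A1081 and A1625, low in A1620, and had at most 1 read in A2031 and A2032. The windows from 250 bases before to 50 bases after the starts of this pair are shown because the genes spread together, beside those of Cldn6, which was high in 3 lines and low in the other two, and Krt18, which was high in all 5 lines. They are RefSeq sequences of GRCm38.p6, on the strand of the gene, with each CG dinucleotide in capitals.
Evc, chr5:37336832-37337131, minus strand: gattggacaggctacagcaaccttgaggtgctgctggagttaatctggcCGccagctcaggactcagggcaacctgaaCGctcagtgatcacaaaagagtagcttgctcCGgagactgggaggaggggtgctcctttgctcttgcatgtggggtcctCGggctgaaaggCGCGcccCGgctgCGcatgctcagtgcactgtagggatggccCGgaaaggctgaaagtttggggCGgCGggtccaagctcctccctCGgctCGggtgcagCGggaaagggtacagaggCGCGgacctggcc
Evc2, chr5:37338228-37338527, plus strand: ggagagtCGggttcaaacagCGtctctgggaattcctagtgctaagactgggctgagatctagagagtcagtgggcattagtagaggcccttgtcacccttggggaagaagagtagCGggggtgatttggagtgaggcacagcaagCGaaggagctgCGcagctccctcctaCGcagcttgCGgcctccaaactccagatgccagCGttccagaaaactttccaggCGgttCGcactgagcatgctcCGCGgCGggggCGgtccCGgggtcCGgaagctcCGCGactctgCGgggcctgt
Cldn6, chr17:23679115-23679414, plus strand: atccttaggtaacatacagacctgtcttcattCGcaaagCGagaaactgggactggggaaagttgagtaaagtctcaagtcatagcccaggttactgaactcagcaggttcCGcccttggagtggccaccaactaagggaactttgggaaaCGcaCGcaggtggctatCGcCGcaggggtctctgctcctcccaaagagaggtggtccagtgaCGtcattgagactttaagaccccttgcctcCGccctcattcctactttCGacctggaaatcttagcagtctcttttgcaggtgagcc
Krt18, chr15:102027966-102028265, plus strand: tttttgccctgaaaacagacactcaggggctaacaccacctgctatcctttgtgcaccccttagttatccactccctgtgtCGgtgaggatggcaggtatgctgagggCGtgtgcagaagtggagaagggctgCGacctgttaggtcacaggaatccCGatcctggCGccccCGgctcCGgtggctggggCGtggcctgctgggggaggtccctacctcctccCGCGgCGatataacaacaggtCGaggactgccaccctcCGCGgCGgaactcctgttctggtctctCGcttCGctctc

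These windows hold 16, 19, 10 and 17 CG dinucleotides in that order. Since CG reads the same on both strands, each is counted once. Promoter windows were found for 7954 of the 10217 genes with a mean of at least 100, and their median was 22 CG, with 88.5% holding 10 or more. Among the genes with an SD of at least 2, 126 of 200 had a window, with a median of 12.5 and 61.9% holding 10 or more. Among the 100 genes with the smallest SD, 80 had a window, with a median of 26 and 90.0%. Over all 27025 windows in the table the median was 7 and the share 43.9%. The wide genes thus had windows with fewer CG than expressed genes in general, and lower levels too, their median mean count being 252 beside 857. The part of level in this difference was not tested, and no methylation was measured.

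Other wide genes belonged to many kinds. Cacna2d1, a calcium channel subunit, had 0.947, 2.65, 417, 0 and 532 normalized counts, in A1625 and A2032. Aim2, a sensor of cytosolic DNA, was high in the same lines, with 9.47, 2.65, 1297, 7.82 and 857. The fatty acid transporter Slc27a6 had 0, 0, 279.8, 258 and 113, at 0 in A1081 and A1620. Sox11, a neural and progenitor factor, had 0.947, 776, 564, 11.2 and 7.22, in A1620 and A1625. Wfdc2, a secreted protease inhibitor of epithelia, had 32.2, 40662, 8289, 17085 and 11300.5, so that A1081 alone was low. The adaptor Blnk had 0, 362, 153, 0 and 7.22, and the cell adhesion gene Amigo2 had 0, 886, 108, 1.12 and 1.03, both highest in A1620. Adcy1, an adenylyl cyclase, had 0, 1162, 3.91, 0 and 0, and its SD of 4.41 was 1.15 without A1620. Tmed1, a cargo receptor of the secretory pathway, had 668, 1042, 0, 245 and 3.09, but it overlaps Dnm2 on the other strand, and whether the authors' counting used strand is not given in the sources used here. Rangrf, with 0, 495, 266, 265 and 173, likewise overlaps Slc25a35.

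Each line had genes of its own, listed here by the size of the gap to the next line. A1081 was set apart by Bgn, by Tns1, an adaptor of focal adhesions (6621, 152, 244, 194 and 205 normalized counts), and by Sulf2, a heparan sulfate sulfatase (1509, 113, 76.3, 22.4 and 24.7). It was lowest for the lysophosphatidic acid receptor Lpar1 (5.68, 438, 854, 719 and 770.1) and the sterol receptor Nr1h5 (0.947, 187, 807, 702 and 619). A1620 was set apart by Adcy1, Krt14 and the kidney mesoderm factor Osr1 (18, 529.8, 13.7, 36.9 and 47.4). It was low for the copper pump Atp7a (402, 5.30, 382, 348 and 351), the collagen-binding integrin Itga2 (2089, 59.6, 3054, 5036 and 2377) and the mitochondrial carrier Slc25a13 (1265, 5.30, 949, 1301 and 847), and these stayed wide after the length correction, with SDs of 2.35, 2.06 and 3.34.

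A1625 had the growth factor-binding protein Igfbp5 (4.73, 3.97, 616, 12.3 and 27.8 normalized counts) and the tetraspanin Tspan12 (7.57, 11.9, 419, 61.5 and 13.4). It was lowest for the desmosome protein Pkp1 (859.6, 126, 6.85, 68.2 and 156) and Ulbp1, a ligand of the natural killer cell receptor (289.7, 11.9, 0.978, 401 and 462). A2031 had the fewest genes at least 4-fold from the next line. It was highest for the collagen Col8a1 (146, 106, 92.9, 674 and 25.8) and for Clca1, a goblet cell secretory protein (53, 168, 92, 4579 and 1565), for which A2032 came next. It was lowest for the growth factor family member Fgf13 (132, 452, 303, 1.12 and 401).

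A2032 was set apart by Cftr, by autotaxin (Enpp2), which makes lysophosphatidic acid (72.9, 6.62, 43, 60.3 and 952 normalized counts), and by Il1rn, the interleukin-1 receptor antagonist (591, 470.2, 579, 1076 and 8517). Naip1, a sensor of bacterial proteins with near-identical relatives, had 2.84, 0, 86.1, 4.47 and 1161, a value that depends on how shared reads were counted. A2032 was lowest for the lysosomal enzyme Galc (1435, 842, 1130.0, 788 and 12.4), the matrix peroxidase Pxdn (1221, 887, 2385, 1015 and 15.5) and the receptor Flt4 (197, 155, 388, 521 and 6.19). These genes were present at 155 or more normalized counts in each of the other 4 lines.

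Genes that were on in 1 line and off in another were counted with a fixed limit: at least 100 normalized counts in 1 or more lines and at most 3 reads in 1 or more. They numbered 233, of which 212 are protein-coding, and 135 met the limit among the 4 lines without A1620. Most, 150, were off in 1 line, 49 in 2, 19 in 3 and 15 in 4. A1620 had the most genes off (103, of them 67 in that line alone), followed by A2032 (85 and 32), A2031 (67 and 16), A1081 (64 and 19) and A1625 (46 and 16). The size factor was 0.755 in A1620 and 0.895 to 1.06 in the other lines, so 3 reads stand for more normalized counts in A1620. Genes off in A1620 alone had a median transcript length of 3964 bases, beside 3542 for all on-off genes. The part of scaling and length in this order was not tested. Neighbouring on-off genes were few. Of 12 pairs next to each other among the expressed genes, 5 were off in the same lines: Evc with Evc2, whose ends are 1604 bases apart, Cldn4 with Cldn3, Tff3 with Tff2, Unc13c with Wdr72, and Fam83b with Tinag. The 67 genes off in A1620 alone include Unc13c, Wdr72, Fam83b and Tinag. How often on-off genes that are not neighbours were off in the same lines was not counted.

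Of 28 imprinted genes, which are expressed from the copy of 1 parent, 15 stayed at or under 10 normalized counts in every line. Among these were H19 (0 to 5.68), Igf2 (0 to 2.65) and Meg3 (0 to 1.12). Of the 28, 5 had a mean of at least 100 and 2 were at 0 throughout. Among all 49568 genes in the table, 10217 had a mean of at least 100 and 24433 were at 0 throughout. Usp29, which starts next to Peg3, had 5.68, 0, 92, 0 and 0, highest in A1625 like Peg3. Igf2r, a scavenger receptor for IGF2, had 745, 383, 518, 2108 and 2757, and was highest in A2031 and A2032. Snrpn, of the Prader-Willi region, had 0, 2.65, 0, 132 and 0, almost all in A2031. Mest had 98.5, 31.8, 0, 48.1 and 156, and was at 0 in A1625.

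At the other end were genes that hardly differed. Supt5, an elongation factor of RNA polymerase, had 3850.0, 3763, 3641, 3687 and 3654 normalized counts and an SD of 0.03 (0.04 without A1620), the smallest of all. Cttn, an actin regulator, had 7184, 6816, 7684, 7426 and 7362 and an SD of 0.06 (0.04 without A1620). Glud1, a mitochondrial glutamate enzyme, had 6179, 5950.2, 6581, 6115 and 5852 and an SD of 0.07 (0.07 without A1620). A small SD that includes A1620 depends on a gene's length: Mlec, with 11237, 10655, 10326, 10184 and 10961 and an SD of 0.06, had 0.42 after the length correction, whereas Cttn and Glud1 had 0.06 and 0.07. Of 18 housekeeping genes, the median SD was 0.49 (0.29 without A1620). Gusb was the steadiest of them, with 1754, 1636, 1493, 1718 and 1636 and an SD of 0.09 (0.10 without A1620).

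Whole chromosomes differed in level in some lines. For each line the median log2 difference from the median of the 5 lines was taken over the expressed genes of a chromosome, less the line's own median. Of 100 such values, 14 were at least 0.2 in size. The largest was -0.47 for chromosome 3 in A1081, where 84.5% of 502 genes were below the line's own median difference. Chromosome 13 followed in the same line at -0.40, with 81.6% of 364 genes below. A2032 had -0.35 for chromosome 19 and -0.28 for chromosome 1, and A2031 -0.31 for chromosome 8. These shifts were much the same after the length correction (-0.45, -0.38, -0.38, -0.32 and -0.34 in that order), and the 0.33 of chromosome 8 in A1620 became 0.30, whereas the -0.31 of chromosome 3 in A1620 became -0.10. No DNA was measured in these lines, and the source of the shifts was not tested. All 5 lines expressed the Y-linked gene Ddx3y, at 986, 132, 1049.8, 1141 and 1014 normalized counts, and Xist stayed at 1.96 to 6.63.

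**Figure D5:**
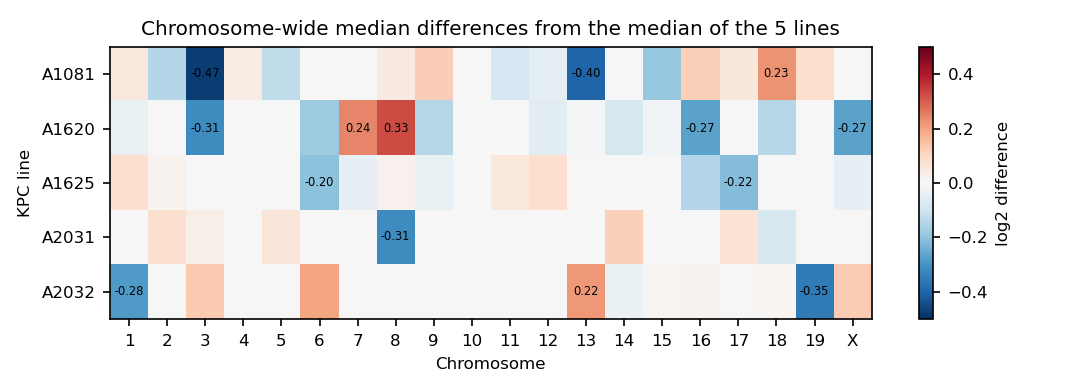
Median log2 difference from the median of the 5 lines over the expressed genes of each chromosome (columns), for each KPC line (rows), less the line's median over all genes; values of at least 0.2 in size are printed. Chromosomes 3 and 13 in A1081 and chromosome 19 in A2032 are the darkest blue cells.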

How the data were processed

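Per the labels' protocols, RNA came from lines cultured in DMEM with serum and stranded mRNA libraries were made. STAR 2.5.2b (an aligner), featureCounts (a read counter), DESeq2 1.14.1 and the read trimmer Trimmomatic 0.36 are among the tools listed in the submitters' processing notes, and 2 builds, GRCm38.p5 and mm9, stand there with no role. The annotation used for counting, and its use of strand, is not given in the sources used here. The deposited values are a signal: the authors' gene counts divided by a size factor per library. Dividing by the value of 1 read gave whole reads, within 0.001 read, for 100% of values.

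From these values the mean, and the SD of log2(value + 1), were computed over the 5 KPC lines for the 49568 genes in the table, of which 24433 were at 0 in all 5 lines. Spread was described for the 10217 genes with a mean of at least 100. Coordinates and transcript lengths are from GENCODE M21 (GRCm38), which held 95.3% of the symbols, and the length correction subtracted a lowess curve (span 0.3) of each line's log2 difference on log2 length. The analysis used Python 3.11.15, numpy 2.4.6, pandas 2.3.3, statsmodels 0.14.6, matplotlib 3.10.9 and, for TMM scaling, edgeR 4.0.16 in R 4.3.3. The spread and length steps were tested on simulated data. Depth limits low genes: at most 3 reads is treated as off.

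The 26 gene lists come from textbook knowledge, and the members and lists were chosen with earlier results of these data known. Named genes are the 20 highest by mean count and per kb, the 24 widest with and without A1620, the 10 narrowest, the 6 largest gaps per line and direction, up to 8 members per list by level and 4 by SD, all driver genes, defining markers at or under 10 in every line, and sex-linked genes. Slc25a35, Dnm2, Unc13c, Wdr72, Fam83b and Tinag were named after their values or positions were seen. Some genes this rule takes are not reported here. Alternatives were leaving out each line, other pseudocounts, filters, scalings and on-off limits, and the length correction.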

Additional observations from a re-analysis of the deposited data

Results flagged for a closer look

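For 163 measures with values in the 5 lines, the gap between an extreme line and the next was set against the whole range on the log2 scale, with a limit of 0.71 for 5 values. Chance passes this limit in about 1 in 20 groups, and 31 of the 163 measures passed it. Many of the genes were named because a line stood apart in them, so that this number is no independent result.

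A1620 was the line apart in 10. Its ratio was 0.933 for the length slope and 0.935 for the share of ribosomal protein reads. It was lowest for Atp7a (0.965), Ddx3y (0.932), Slc25a13 (0.92) and Itga2 (0.801). It was highest for Bax (0.928), Vim (0.784), Adcy1 (0.774) and Krt18 (0.728).

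A1081 was the line apart in 10. It was highest for Tns1 (0.876), Bgn (0.828) and Cdh5 (0.820), which serve adhesion and matrix, and for Psmb8 (0.867) and H19 (1), both under 10 normalized counts. It was lowest for Lpar1 (0.863), Rangrf (0.831), Twist1 (0.806), Wfdc2 (0.776) and Nr1h5 (0.758).

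A2032 was highest for Cftr (0.755), Il1rn (0.714) and Trp63 (1, with 2 reads) and lowest for Galc (0.872), Pxdn (0.801) and Flt4 (0.718). A2031 was highest for Clu (0.753) and Snrpn (0.735) and lowest for Fgf13 (0.771). A1625 was highest for Tek (1, with 1 read) and lowest for Cd14 (0.711).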

How the results depend on the processing

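The count of genes with an SD of at least 1 (1240) was 617 to 1554 with 1 line left out, the lowest without A1620, and 1872, 774 and 5254 with a mean of at least 30, at least 300 and no filter. The count with an SD of at least 2 (200) was 175 to 246 with 1 line left out, 132 with a pseudocount of 10, and 385, 80 and 666 under those filters. The median SD (0.51) was 0.31 to 0.55 with 1 line left out. On-off genes (233) were 135 to 198 with 1 line left out, 68 with a high value of at least 300, 110 with a low value of 0 reads and 422 with at most 10 reads. The length slope of A2032 (0.13) was -0.049 to 0.17 and turned negative without A1620. The mean distance of the pairs with A1620 (0.84) fell to 0.57 after the length correction. Chromosome values of at least 0.2 (14) numbered 7 to 14 with 1 line left out, 7 without A1081 or A2032 and 9 without A1620. TMM and quantile scaling left each of the counts of wide genes within 1.5 times. Of the SDs of the 168 genes named, 26 moved by more than 1.5 times without A1620, 21 without A1081, 11 without A1625, 11 without A2031, 17 without A2032, 29 with the length correction and 37 with a pseudocount of 10. TMM and quantile scaling moved none of their mean log2 levels by as much as the gene's SD over the 5 lines. With 5 lines and 1 library each, an SD is itself imprecise, and values under 10 normalized counts rest on few reads. No paired analysis was possible because the lines form 1 group and no groups were compared. In these alternatives, the cause of each change was not tested.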
